A study of Mus musculus with 4 samples.

Results

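The cells described here are 4723 of the 62665 cells in the data, all from injured muscle at 7 days post injury (7 dpi), chosen by their transcripts of cartilage genes. A cell was taken when at most 10% of its unique molecular identifiers (UMIs, which count captured transcripts) were mitochondrial, when the cartilage genes *Acan*, *Col9a1*, *Hapln1*, *Snorc* and *Matn3* together had at least 5 UMIs, and when *Col10a1* and *Ptprc* had 0. They made up 20.5% (95% exact Clopper-Pearson interval 19.99 to 21.0) of the 23026 cells of that library within the mitochondrial limit, and they are called gated *Col10a1*-negative cells below. Their working name was chondrocytes without *Col10a1*, and their markers fitted that name for some of them only.

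The study followed heterotopic ossification, the formation of cartilage and bone in soft tissue, in *Nse-Bmp4* mice on a C57BL/6 background, in which the rat neuron-specific enolase promoter drives a mouse *Bmp4* cDNA. Mice of 6 to 8 weeks, of a sex that the sources used here do not give, had cardiotoxin injected into the tibial muscle, and muscle was taken uninjured and at 1, 3 and 7 dpi. Each of the 4 libraries, 1 per time point, pooled 3 muscles digested with collagenase, every library came from mice with the transgene, and no wild-type muscle is part of the comparisons here. The uninjured, 1, 3 and 7 dpi libraries held 112317902, 91146335, 116346301 and 129007669 UMIs in 12031, 11722, 15160 and 23752 cells, and the median cell of the 7 dpi library had 3083 UMIs. With 1 library for each time point and no replicate, no test was possible. The 95% intervals below are exact Poisson intervals for levels, Clopper-Pearson intervals for shares and conditional binomial intervals for ratios. They cover counting error only, not the spread between mice. Levels are given as CPM, which scales a gene's summed UMIs to 1000000 UMIs of the same population. A gene's CPM also depends on its length, so a level set beside that of another gene is a share of UMIs and not a count of transcripts per length.

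In endochondral ossification, mesenchymal cells condense, become chondrocytes under the transcription factor *Sox9* with its partners *Sox5* and *Sox6*, and lay down type II, IX and XI collagen around aggrecan. Chondrocytes then stop dividing, pass through a prehypertrophic stage with *Ihh* and *Pth1r*, and enlarge into hypertrophic cells that make type X collagen, encoded by *Col10a1*, before bone replaces the cartilage. Cells with cartilage matrix transcripts and without *Col10a1* can therefore stand anywhere from the first cartilage transcripts to the edge of hypertrophy.

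Each of the 5 gate genes encodes a protein of the cartilage matrix or of the chondrocyte. *Acan* (aggrecan, the large proteoglycan that holds water; chromosome 7, 79053483 to 79115099 on GRCm38) gave 37.6% of the gate UMIs and was found in 96.7% of the gated *Col10a1*-negative cells. *Snorc*, a small chondrocyte membrane proteoglycan (chromosome 1, 87470271 to 87475482), gave 21.2% and *Col9a1*, a chain of type IX collagen (chromosome 1, 24177610 to 24252684), 19.6%. *Hapln1*, the link protein that ties aggrecan to hyaluronan (chromosome 13, 89539796 to 89611652), gave 14.5%, and *Matn3*, the filament-forming matrilin 3 (chromosome 12, 8947929 to 8972028), 7.15%. Since *Acan* led the gate, a cell could enter with *Acan* alone, and UMIs of all 5 genes were present in 1609 cells (34.1%).

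The windows from 250 bases before to 50 bases after the RefSeq start (GRCm38.p6) of *Acan*, the gate gene that had 237 CPM in mesenchymal cells, taken without the gate, that had no *Col2a1* UMI, and of *Hapln1*, which had 10.7 CPM there, are shown for comparison (*Acan* chr7:79052976-79053275, *Hapln1* chr13:89540386-89540685, both on the plus strand).
Acan: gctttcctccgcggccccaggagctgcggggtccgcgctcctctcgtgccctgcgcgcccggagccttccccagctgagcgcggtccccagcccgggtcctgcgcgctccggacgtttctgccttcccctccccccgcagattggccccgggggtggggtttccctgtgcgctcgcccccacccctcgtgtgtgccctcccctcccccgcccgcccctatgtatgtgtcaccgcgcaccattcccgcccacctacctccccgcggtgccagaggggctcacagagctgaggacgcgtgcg
Hapln1: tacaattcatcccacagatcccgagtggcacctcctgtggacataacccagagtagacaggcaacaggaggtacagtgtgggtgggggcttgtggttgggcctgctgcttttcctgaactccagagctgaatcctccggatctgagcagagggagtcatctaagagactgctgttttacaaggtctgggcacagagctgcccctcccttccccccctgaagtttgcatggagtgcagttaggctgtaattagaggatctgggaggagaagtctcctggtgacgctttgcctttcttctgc
The *Acan* window was 74.0% G or C and the *Hapln1* window 54.3%. Neither held ACAATG or ACAAAG, core letters bound by Sox family factors, on either strand, and neither did the windows found for *Col9a1*, *Matn3*, *Col9a2*, *Col11a1* and *Col11a2*. Of all 32851 promoter windows of the same length, 12.6% held ACAATG, 18.7% ACAAAG and 28.6% at least 1 of them. This says only that those letters are not in these windows.

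The markers fitted the name only in part. *Col2a1* (type II collagen, the main cartilage collagen; ENSMUSG00000022483, chromosome 15, 97975602 to 98004695), which the rule did not use, had at least 1 UMI in 4188 of the 4723 cells (88.7%, 87.7 to 89.6), and *Sox9* in 2854 (60.4%, 59.0 to 61.8). The *Col2a1* UMIs per cell had a median of 12, with 0 at the 5th and 216 at the 95th percentile, while *Col1a1*, the type I collagen of bone and fibrous tissue, had a median of 72. In 3928 cells (83.2%, 82.1 to 84.2) *Col1a1* UMIs outnumbered those of *Col2a1*, and 2899 (61.4%) carried UMIs of both *Prrx1* and *Col1a1*, the pair by which the study defines mesenchymal lineage cells. *Col1a1* UMIs also outnumbered those of *Col2a1* in 78.1% of the *Ptprc*-positive cells. Ranked by CPM without regard to gene length, *Gm42418*, which overlaps ribosomal RNA, and the nuclear RNA *Malat1* came first, followed by *Col1a1* at 13305 CPM, *Sparc*, a matrix glycoprotein, at 12473 CPM, *Col1a2* at 11673 CPM and *Col3a1* at 7990.1 CPM. *Col2a1* stood at 6199 CPM (6173 to 6224).

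The median depth was 4654 UMIs and 1881 genes per gated *Col10a1*-negative cell. At that depth 0 *Col10a1* UMIs allow a level of up to 644.6 CPM in a single cell (3 counts), so the absence of the transcript is not shown for any 1 cell. The gate genes were found in other droplets of this library too. Of 3579 cells with a *Ptprc* UMI (the leukocyte marker CD45), 674 (18.8%, 17.6 to 20.2) also passed the gate, and *Col2a1* in the *Ptprc*-positive cells was at 2585 CPM. Among cells picked by lineage markers, natural killer cells passed the gate in 34 of 606 (5.61%), B cells in 14 of 217 (6.45%), and myogenic cells in 127 of 537 (23.6%). Over all cells of these lineages, gated or not, the median gate sums were 0, 0 and 1, and between 29.4% and 44.6% of the cells of such lineages that did not pass the gate still had a *Col2a1* UMI. Endothelial cells passed in 18.0%, and mural cells, which surround vessels, in 25.1%. The part of free RNA and of doublets in the membership was not tested. No doublet was removed from the 4723 cells, and removing the top 7.5% of Scrublet doublet scores in the library, a fixed share and not a call, left 4202. Of the member barcodes, 18, 22 and 18 also occurred in the uninjured, 1 dpi and 3 dpi libraries.

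The same rule found almost no cell before 7 dpi. It took 5 cells in uninjured muscle, 0 of 10853 at 1 dpi (upper Clopper-Pearson limit 0.0340%) and 7 at 3 dpi, and these carried 1 and 0 *Col2a1* UMIs in the uninjured and 3 dpi libraries. The gated cells before 7 dpi were few and almost without type II collagen. Among the cells with *Prrx1* and *Col1a1* UMIs and none of *Ptprc*, the share with at least 5 gate UMIs, whatever their *Col10a1* count, was 0.0834%, 0 and 0.151% in the first 3 libraries and 36.3% (35.3 to 37.2) at 7 dpi, where 2899 of those 3673 cells had no *Col10a1* UMI. Taken without the gate, these mesenchymal cells had *Acan* at 0.65, 0.47, 1.65 and 845 CPM in uninjured, 1, 3 and 7 dpi muscle, and *Col2a1* at 0.89, 0.57, 0.34 and 3231 CPM. The 6 cartilage collagen genes outside the gate, *Col2a1* among them, summed to 45.4, 71.7, 68.0 and 5820 CPM, so some of their transcripts were present before 7 dpi. *Sox9* was at 25.3, 33.2, 43.0 and 159 CPM, and *Runx2*, the factor of osteoblasts and hypertrophic chondrocytes, followed 10.0, 7.2, 47.2 and 73.7 CPM. *Tnn* (tenascin-W), a matrix protein of forming bone and tendon, was at 4.5, 8.8, 87.3 and 302 CPM. Each step between time points is a difference between single pooled libraries, so time and library cannot be told apart.

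Cartilage transcripts were present on both sides of the gate. Cells just outside, with a gate sum of 4 and otherwise the same rule, numbered 605 and had *Col2a1* at 512 CPM, and the 477 cells just inside, with a sum of 5, had 833 CPM. Cells with a gate sum of 0 had 111 CPM, and those with 50 or more, of which there were 546, had 19718 CPM. *Sox9* was at 73.9 CPM at a sum of 0, 149.8 at 4, 170.0 at 5 and 386 at 50 or more. The levels thus graded across the threshold without a gap. *Cnmd* (chondromodulin, an inhibitor of vessel growth in cartilage) was at 71.9 CPM at a sum of 4, 84.8 at 5 and 1722 at 50 or more, and *Ucma*, a secreted protein of the upper growth plate, at 19.8, 37.0 and 823 CPM. *Igf1*, a growth factor, had 741 CPM at a sum of 0 and 129 at 50 or more, *Ly6a* (Sca-1, a progenitor surface marker) 956 and 181 CPM, and *Acta2* (smooth muscle actin, a mural cell marker) 1251 and 227 CPM. Some summed lists of other cell types were lower at the upper end, with mural cell markers at 1927 CPM at a sum of 0 and 280 at 50 or more, myogenic markers at 327 and 40.4 CPM, erythroid markers at 530 and 7.69 CPM, and monocyte and macrophage markers at 297 and 43.5 CPM. *Acta2* made up 1251 and 227 CPM of the mural sums, so these are not separate from the *Acta2* levels above. Not every list was lower there. Schwann cell markers were at 168 CPM at a sum of 0 and 310 at 50 or more, and the osteoblast and bone matrix list was at 20085 and 23812 CPM. Over all gated *Col10a1*-negative cells, *S100b* alone gave 96.1 of the 144 CPM of the Schwann list, so that sum rested mostly on *S100b*. The part of other cell types in these levels was not tested. *Scx*, the tendon transcription factor, was highest in between, with 44.7 CPM at 0, 80.7 at 4, 135 at sums of 10 to 19 and 19.3 at 50 or more. The median depth differed along these classes, from 2281 UMIs at a sum of 0 to 14273 at 50 or more, and since the gate counts UMIs, a deep cell passed it more easily. The part of depth was not tested.

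**Figure D1:**
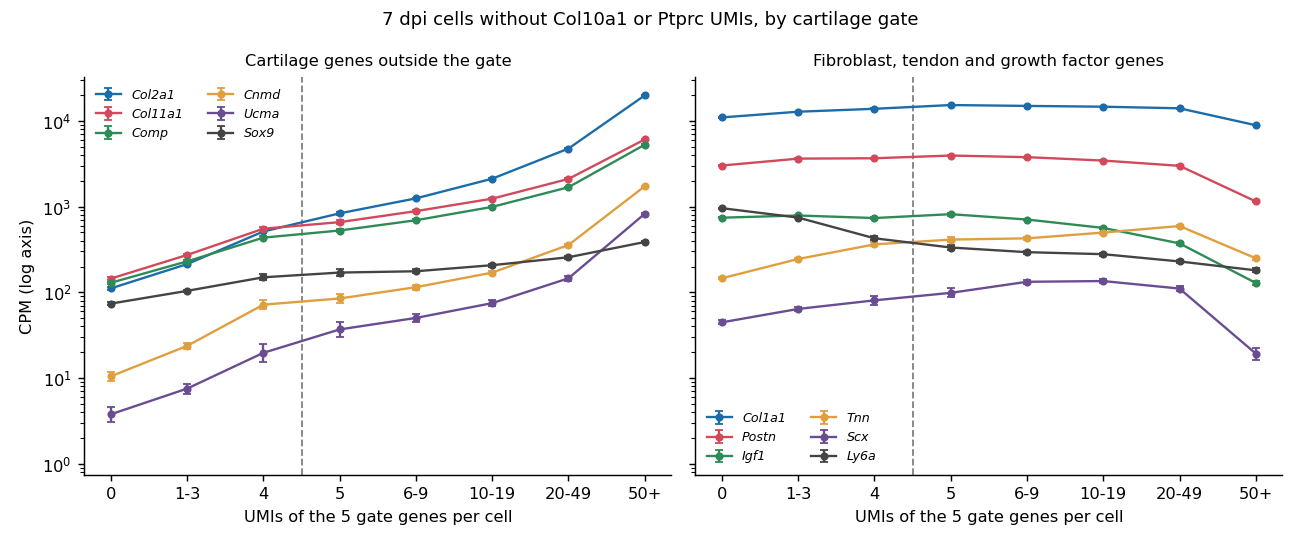
CPM (log axis) of 6 cartilage genes (left) and 6 other genes (right) in 7 dpi cells without *Col10a1* and *Ptprc* UMIs, by the summed UMIs of the 5 gate genes, with the dashed line at the threshold of 5 and bars for 95% exact Poisson intervals. *Col2a1* runs from 111 CPM at a sum of 0 to 19718 CPM at 50 or more, while *Scx* is at 135 CPM at sums of 10 to 19 and 19.3 CPM at 50 or more.

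The gated *Col10a1*-negative cells differed widely among themselves. They were ordered by the share of *Col2a1* among each cell's UMIs, which the rule did not use, and divided into 4 equal quartiles of 1181, 1181, 1181 and 1180 cells. The order itself was made by *Col2a1*, so its levels of 61.0, 1567, 6182 and 23765 CPM in quartiles 1 to 4 are a description. *Acan* was at 742, 1087, 1649.8 and 3779.9 CPM, *Col9a1* at 89.3, 471, 992 and 2629 CPM, *Hapln1* at 15.01, 289, 798 and 2054 CPM. Since every cell had to hold at least 5 gate UMIs, the gate gene levels of cells with little *Col2a1* are in part set by the rule. *Matn3* was at 22.3, 121, 341 and 1039 CPM, and *Snorc* at 21.6, 368, 964 and 3193 CPM. Quartile 1 therefore entered the gate almost by *Acan* alone, with 54.7% of its cells holding a *Col2a1* UMI, and its median depth was 13295 UMIs against 4396, 3275 and 3522.5 in quartiles 2 to 4.

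From quartile 1 to 4 the summed list of fibroblast and perichondrium genes was at 28509, 25171, 25073 and 18432 CPM. That of tendon genes was at 1673, 1431, 1436 and 1122 CPM, and that of mural cell markers at 1813, 1081, 909.9 and 328 CPM. Over all gated *Col10a1*-negative cells, *Egr1* gave 858 of the 1478 CPM of the tendon list. *Acta2* gave 1087 of the 1235 CPM of the mural list. Over that whole population the tendon and mural sums thus rested mostly on those genes. The osteoblast and bone matrix list, which holds *Col1a1*, was highest in quartile 3, at 27301, 29688, 30233 and 25346 CPM. *Postn* (periostin, a matricellular protein of periosteum and wounds) was at 3904 CPM in quartile 1 and at 1255 CPM in quartile 4, and *Aspn* (asporin, a small leucine-rich proteoglycan) at 2211 and 501 CPM. In the same 2 quartiles *Acta2* stood at 1676 and 234 CPM, *Tnc* (tenascin-C) at 880.0 and 246 CPM, and *Tnn* at 608 and 174 CPM. The tendon genes *Scx* and *Tnmd* (tenomodulin) were at 171 and 300.03 CPM in quartile 1 and at 20.6 and 35.3 CPM in quartile 4. *Sox9* was at 184, 207, 275 and 397 CPM from quartile 1 to 4. Quartile 1 is for these reasons not well named as chondrocytes, and it is given no other cell type name here.

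The cartilage matrix genes outside the gate that are named next were highest in quartile 4. *Comp* (a pentameric glycoprotein that binds collagen) was at 419.7, 1031, 2315 and 5911 CPM, *Col11a1* (type XI collagen, in the core of the cartilage fibril) at 606, 1268, 2748 and 6800.2 CPM, and *Cnmd* at 29.1, 268, 590.1 and 1811 CPM. *Ucma* was at 10.7, 94.1, 222 and 906 CPM. The signalling genes of the prehypertrophic stage had the same order, with *Ihh* at 0.66, 6.58, 26.0 and 63.2 CPM and *Pth1r* at 169 CPM in quartile 1 and 760.0 CPM in quartile 4. Cell cycle inhibitors went opposite ways. *Cdkn1c* (p57, which cartilage needs to leave the cycle) was at 162, 178, 226 and 585 CPM and *Cdkn2b* (p15, induced by TGF-beta) at 99.2, 47.3, 32.9 and 15.8 CPM. *Mki67*, a gene of dividing cells, was at 96.7 CPM in quartile 1 and 41.6 CPM in quartile 4. *Ibsp*, a sialoprotein of mineralizing matrix, was at 1168, 3376, 3887 and 4376 CPM, but among cells with a gate sum of 50 or more, an alternative added after the data were seen, the log2 ratio of quartile 4 to quartile 1 was -0.75. Transcripts of blood cells were unevenly spread over the quartiles. Monocyte and macrophage markers summed to 42.3, 245, 218 and 114 CPM, neutrophil markers to 7.92, 159, 203 and 73.5 CPM, and *Hba-a1* (an alpha globin) stood at 2.0, 75.6, 10.6 and 7.4 CPM. Their part in the levels of quartiles 2 and 3 was not tested.

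**Figure D2:**
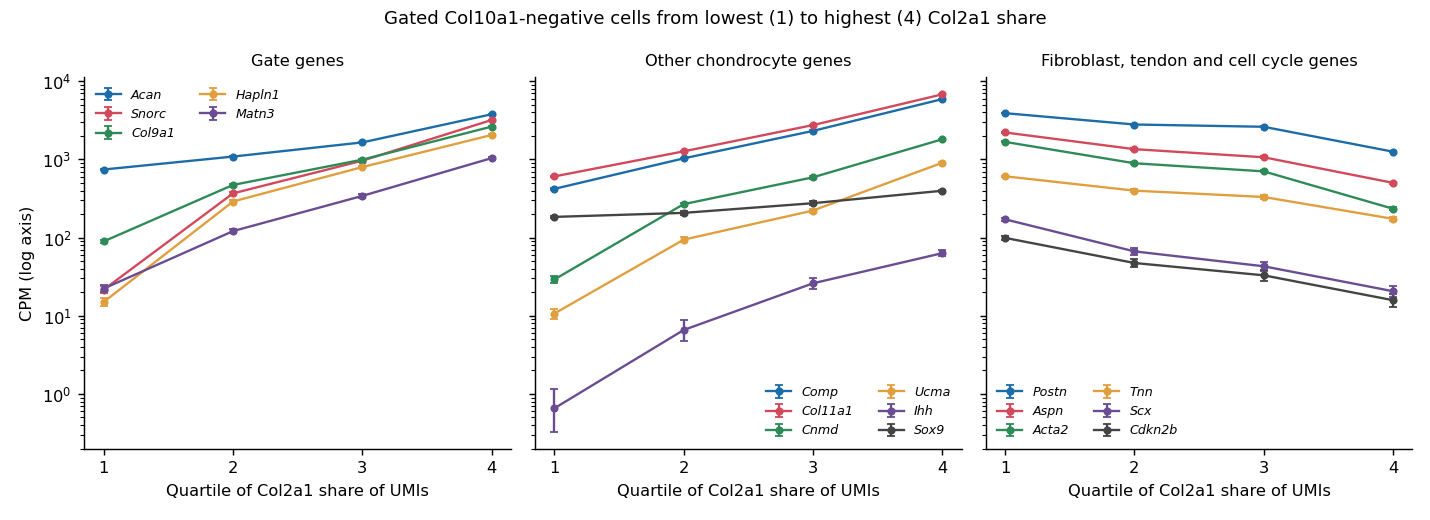
CPM (log axis) of selected genes in the 4 quartiles of gated *Col10a1*-negative cells ordered by the *Col2a1* share of their UMIs, with bars for 95% exact Poisson intervals. *Hapln1* runs from 15.01 to 2054 CPM and *Acan* from 742 to 3779.9 CPM, whereas *Scx* runs from 171 down to 20.6 CPM.

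The gate genes and *Sox9* had the same order in mesenchymal cells picked without any gate gene, whereas *Scx* did not. The 10126 cells of the 7 dpi library with *Prrx1* and *Col1a1* UMIs and none of *Ptprc* were divided by their *Col2a1* UMIs into classes of 0, 1 to 2, 3 to 9, 10 to 49 and 50 or more, with 3850, 3066, 1056, 1366 and 788 cells. Median depths were 4438, 8267.5, 5281, 3927 and 10322 UMIs, so 0 *Col2a1* UMIs do not show that a cell lacked the transcript. The part of depth was not tested. *Acan* had 237, 274, 419, 1370.4 and 4177 CPM in these classes, and *Hapln1* 10.7, 11.5, 68.5, 653 and 2452 CPM. *Acan* was thus at 237 CPM in cells without a *Col2a1* UMI, where *Hapln1* was at 10.7 CPM, *Matn3* at 11.2, *Snorc* at 11.7 and *Col9a1* at 36.5 CPM. *Matn3* reached 989 CPM, *Snorc* 3174 CPM and *Col9a1* 2418 CPM in the highest class. *Sox9* was at 106, 118, 138, 223 and 396 CPM, and *Scx* at 69.9, 85.7, 108, 48.96 and 19.3 CPM, highest at 3 to 9 *Col2a1* UMIs. Of these cells 2899 are also gated *Col10a1*-negative cells, so this is the same library read along another axis and not a second experiment.

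**Figure D3:**
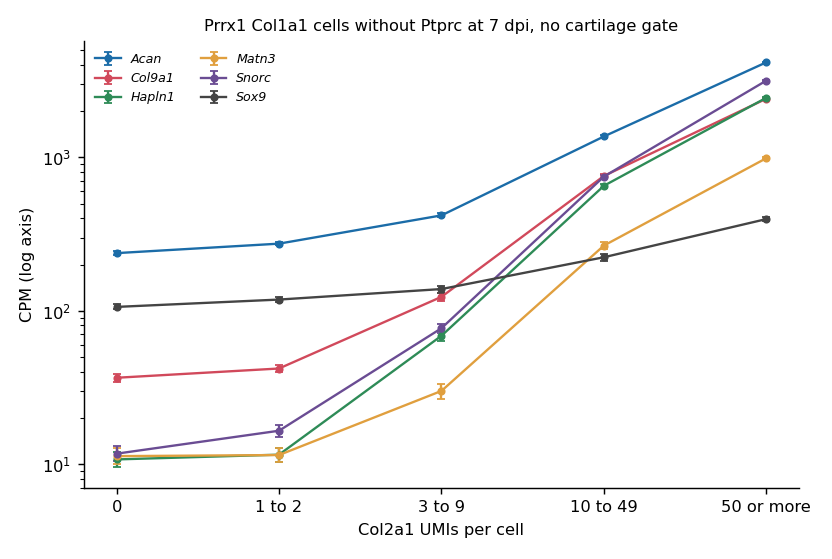
CPM (log axis) of the 5 gate genes and *Sox9* in 7 dpi cells with *Prrx1* and *Col1a1* UMIs and none of *Ptprc*, by their *Col2a1* UMIs, with bars for 95% exact Poisson intervals. *Acan* is at 237 CPM where *Col2a1* is 0 and *Snorc* at 11.7 CPM, and at 50 or more *Col2a1* UMIs they reach 4177 and 3174 CPM.

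The gated *Col10a1*-negative cells were then set against the 1413 gated cells with at least 1 *Col10a1* UMI, to show what differs on either side of the hypertrophy marker. A gene was called at a ratio of CPM of at least 2, with at least 100 UMIs in the population with the higher level and at least 10 in the other. Of 11232 genes measured this way, 78 (0.694%) were higher and 218 (1.94%) lower in the *Col10a1*-negative cells, and the median log2 ratio over all of them was 0.10. Of the *Col10a1*-positive cells, 508 had exactly 1 *Col10a1* UMI and the median was 3. *Col10a1* was also found in 7.96% of the *Ptprc*-positive cells, 154 of which had exactly 1 UMI. A single *Col10a1* UMI therefore does not show that a cell made the transcript. The part of free RNA and doublets in the *Col10a1*-positive cells was not tested. The gate sums of the gated populations also differed, with medians of 12 without and 24 with *Col10a1*, and no adjustment was made for this. Median depths were 4654 and 4234 UMIs. Of the calls, 26.4% were higher ones, and with the mean of per-cell CPM in place of summed UMIs 37.7%. With at least 3 *Col10a1* UMIs required of the positive cells the balance turned, with 602 genes higher and 368 lower (62.1% higher). Among cells with at least 50 gate UMIs, a limit chosen after the data were seen, 42 genes were higher, 3 of them among the 78, and 131 lower, 101 of them among the 218.

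Over all gated cells, cartilage collagens were lower without *Col10a1*. All 6 outside the gate (*Col2a1*, *Col9a2*, *Col9a3*, *Col11a1*, *Col11a2* and *Col27a1*) were called lower, with a median log2 ratio of -1.15, and *Col2a1* was at 6199 CPM against 16858, 2.72-fold lower (2.70 to 2.74). The gap was smaller among cells with at least 50 gate UMIs. There the 6 summed to 33141 CPM with 0, 37099 with 1 to 9 and 50309 with 10 or more *Col10a1* UMIs, differences under 2-fold. Of 16 other matrix genes, 4 were lower and 0 higher, with a median of -0.53. These were *Comp* at 1958 against 5502 CPM, *Matn1* (matrilin 1, of mature cartilage) at 51.9 against 219.6 CPM, the collagen-binding *Chad* at 44.2 against 109 CPM, and *Susd5* at 72.9 against 209.5 CPM. *Ucma* stood apart from these, with 245 CPM (239.8 to 249.99) in the *Col10a1*-negative cells and 181 CPM (173 to 189) in the positive ones, a ratio of 1.35 (1.29 to 1.42) that is under the 2-fold used for calls. *Cnmd* was at 528 and 820 CPM. Chondroitin sulfate enzymes and transporters had 15 members measured, of which only *Slc35d1*, a nucleotide sugar transporter, was called, at 23.7 against 60.2 CPM.

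Of 10 transcription factors of the chondrocyte measured, 3 were called lower and 0 higher, with a median log2 ratio of -0.74. *Foxa2* was at 1.45 against 12.4 CPM (8.54-fold lower, 6.16 to 12.0) and *Foxa3* at 4.68 against 22.8 CPM, both factors of hypertrophic differentiation, and *Mef2c*, which drives *Col10a1*, was at 209 against 566 CPM. *Sox9* was at 246 (241 to 251) and 343 (332 to 355) CPM, *Sox5* at 30.7 and 38.4 CPM, and *Sox6* at 49.2 and 78.8 CPM, all short of 2-fold.

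*Ihh* and *Pth1r* differed by more than 2-fold. *Ihh* (Indian hedgehog, made by prehypertrophic chondrocytes; chromosome 1, 74945315 to 74951672) was at 18.5 CPM against 166, 8.96-fold lower (8.20 to 9.81), and *Pth1r*, the receptor of parathyroid hormone-related protein, at 352 against 1066 CPM, 3.02-fold lower (2.95 to 3.10). The hedgehog receptor and target *Ptch1* was at 119.6 and 107 CPM and the target *Gli1* at 15.4 and 10.6 CPM, both within 2-fold, so the ligand differed by far more than its readouts. Of the 11 genes of this loop measured, *Ihh* and *Pth1r* alone were called, and the median log2 ratio was 0.18. Of 21 BMP pathway genes, 3 were lower and 0 higher with a median of 0.04, namely the ligands *Bmp2* at 4.35 against 23.5 CPM and *Bmp6* at 5.25 against 29.2 CPM, and the decoy receptor *Bambi* at 61.7 against 125 CPM. *Bmp4* was at 8.42 and 4.57 CPM, and the counts do not tell the transgene from the endogenous gene. *Fgfr3*, the receptor that slows chondrocyte division, was the 1 called among 14 FGF and IGF genes, at 43.9 against 127 CPM, and *Fgfr2* had the opposite order at 63.7 and 39.4 CPM. Among 12 Wnt genes, *Dkk3* at 104 against 51.5 CPM and *Lef1* at 7.14 against 3.14 CPM were higher without *Col10a1*, and the secreted inhibitor *Frzb* at 120.0 against 279 CPM, *Wnt5b* and *Wnt4* were lower.

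Some hypertrophy and mineralization genes were lower in the *Col10a1*-negative cells, although most of the list was not absent. Of 14 measured, 6 were called lower, 0 higher and 8 were not called, with a median log2 ratio of -0.76. *Ibsp* was at 2644 against 10645 CPM (4.03-fold lower, 3.99 to 4.06), the phosphate-regulating peptidase *Phex* at 3.55 against 30.8 CPM, *Spp1* (osteopontin) at 389 against 961 CPM and *Panx3* (a channel of prehypertrophic cells) at 153 against 417 CPM. *Bglap* (osteocalcin) and *S100a1* completed the 6. *Alpl*, the alkaline phosphatase of mineralizing matrix, was at 386 and 715 CPM, and *Sp7* at 44.3 and 56.3 CPM, not called. *Ibsp* had at least 1 UMI in 60.7% of the *Col10a1*-negative cells, and after thinning every cell to 1000 UMIs, in 40.8%, against 73.4% of the positive and 19.7% of the *Ptprc*-positive cells. A transcript tied to mineralizing matrix was thus detected in a larger share of the gated *Col10a1*-negative than of the *Ptprc*-positive cells. The *Ptprc*-positive cells were chosen by at least 1 *Ptprc* UMI only and had a median of 8 *Col1a1* UMIs. They were not required to pass the gate, so the shares do not compare cells chosen alike.

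The 10 largest ratios among the genes that were lower without *Col10a1* began with *Wnk4*, a kinase that regulates ion transport, at 3.77 against 48.5 CPM (12.8-fold lower, 10.6 to 15.6). *Ihh*, *Phex* and *Foxa2* came next, followed by *Loxl4*, a lysyl oxidase that crosslinks collagen, at 11.2 against 85.0 CPM and *F13a1*, a transglutaminase subunit, at 6.29 against 47.0 CPM. *F5*, *B3galt2*, *Proser2* and *Gm45397* completed them, at ratios of 6.97-fold to 6.13-fold lower. The 10 largest in the other direction were mostly genes of other cell types. They were the globins *Hba-a1* at 18.4 against 1.62 CPM, *Hbb-bs* at 38.9 against 5.90 CPM and *Hba-a2*, the immunoglobulin light chain *Igkc* at 105 against 12.0 CPM, the macrophage gene *Retnla*, the mast cell proteases *Cpa3* and *Mcpt4*, the histone gene *Hist1h3f*, and *Rtn4r* and *Slc5a7*. The direction turned for *Slc5a7* after thinning, with a log2 ratio of -0.17, and for *Mcpt4* at a gate sum of at least 50, with a log2 ratio of -0.047. A single droplet held 3461 of the 3823 *Igkc* UMIs, and without cells over 2 SD of the library's depth the log2 ratio of *Igkc* was -0.45. Of the *Hba-a1* UMIs, 34.6% lay in 5 cells. Monocyte and macrophage markers as a list summed to 121 CPM in the *Col10a1*-negative, 98.5 in the positive and 2732 in the *Ptprc*-positive cells, with *Lyz2* the most abundant at 88.6 CPM and none at 0. Of 6 of these markers measured against the *Col10a1*-positive cells, 3 were called higher and 0 lower, where 0.694% and 1.94% of all genes were. Erythroid markers summed to 76.6 and 10.2 CPM, with *Hbb-bs* the most abundant and *Car1* at 0, and 3 of 3 measured were called higher. Of 2 neutrophil and 3 lymphocyte markers measured, 0 were called. The part of these droplets in the 78 higher calls was not tested.

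Genes of fibroblasts, tendon and division were not called at 2-fold between the gated populations taken whole. Over all 11232 genes, 0.694% were called higher and 1.94% lower, so 0 calls in lists of this size is near that share. Of 19 fibroblast and perichondrium genes 0 were called and the median log2 ratio was 0.39, and of 6 tendon genes 0 with a median of 0.53, against 0.10 for all genes. *Scx* was at 102 (98.5 to 105) and 59.8 (55.2 to 64.7) CPM and *Tnmd* at 185 and 101 CPM. Of 20 cell cycle genes 0 were called with a median of 0.44, and *Mki67* was at 79.9 and 62.2 CPM. The cell cycle sum did differ along the *Col10a1* count. It was at 940 CPM with 0, 998 with 1 to 2, 495 with 3 to 9 and 345 with 10 or more *Col10a1* UMIs. At a gate sum of at least 50, chosen after the data were seen, it was at 603, 658 and 257 CPM with 0, 1 to 9 and 10 or more. Among 6 cell cycle inhibitors, *Cdkn2b* was higher without *Col10a1* at 62.5 against 30.0 CPM, while *Cdkn1c* at 263 against 926 CPM and *Cdkn1a* (p21) at 176 against 380 CPM were lower. Glycolysis genes (17) and genes of collagen processing (20) had no call and medians of -0.05 and -0.12.

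**Figure D4:**
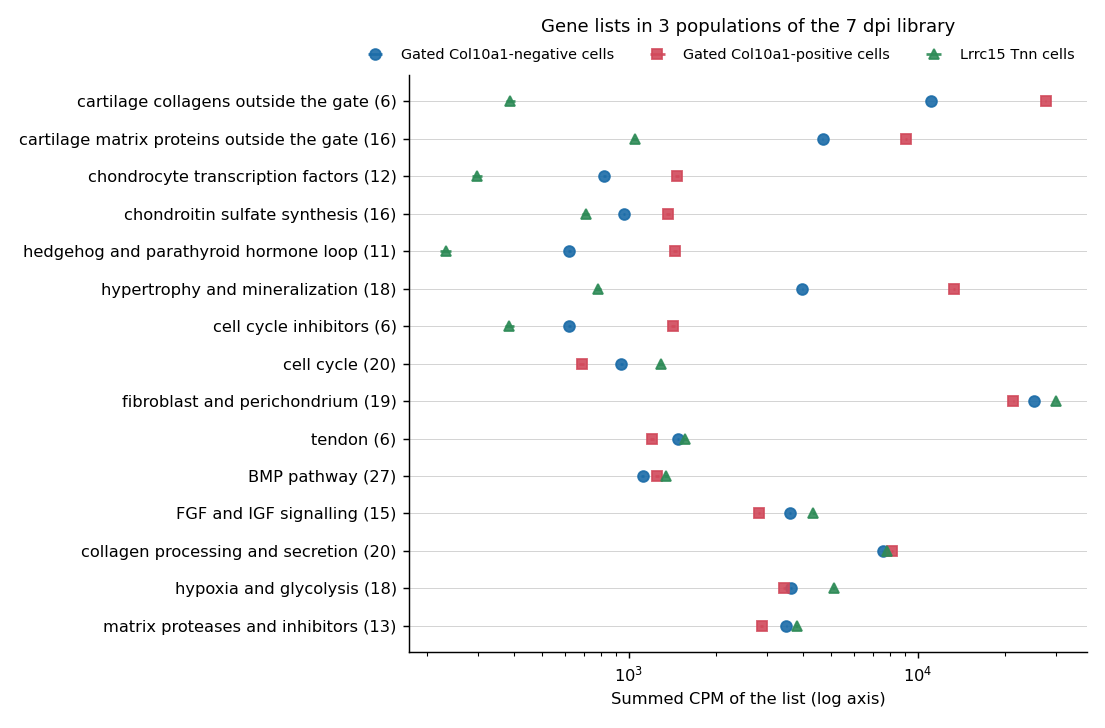
Summed CPM (log axis) of 15 gene lists in gated *Col10a1*-negative cells, gated *Col10a1*-positive cells and cells with *Lrrc15* or *Tnn* UMIs and no gate UMI, all at 7 dpi. Cartilage collagens outside the gate sum to 11108, 27729 and 389 CPM in that order, and tendon genes to 1478, 1202 and 1566 CPM. *Egr1* gives 858 of the 1478 CPM of the tendon list.

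Along finer classes of *Col10a1* the levels were graded. The gated cells with 0, 1 to 2, 3 to 9 and 10 or more *Col10a1* UMIs numbered 4723, 665, 382 and 366, with median gate sums of 12, 17, 24 and 56. *Ihh* was at 18.5, 45.3, 147 and 354 CPM, *Ibsp* at 2644, 5433, 11583 and 17701 CPM, and *Cdkn1c* at 263, 404, 993 and 1648 CPM. Cells with 1 or 2 *Col10a1* UMIs were nearer to those with 0 than to those with 10 or more for each of these genes. *Pth1r* was at 352, 546, 1151 and 1775 CPM. *Fgfr2* at 63.7, 53.5, 37.7 and 19.9 CPM and *Dkk3* at 104, 77.3, 42.6 and 19.3 CPM ran the other way, and *Scx* was at 102, 100.2, 23.7 and 22.5 CPM. *Tnn* was at 438, 407, 259 and 138 CPM.

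The classes also differed in their gate sums, so they were described again within cells that had at least 50 gate UMIs, a restriction chosen after the data were seen. It kept 546 cells with 0, 212 with 1 to 9 and 196 with 10 or more *Col10a1* UMIs, with median gate sums of 109.5, 100 and 149.5 and median depths of 14273, 8937 and 9607.5 UMIs. Among these cells, rich in cartilage transcripts, *Ucma* was at 823, 354 and 216 CPM, and *Cnmd* at 1722, 1307 and 1271 CPM. Both were highest where *Col10a1* was 0. *Scrg1*, a chondrogenesis gene, was at 319, 255 and 201 CPM, *Lum* (lumican) at 1003, 888 and 583 CPM, and *Tnc* at 358, 262 and 126 CPM. The receptor *Fgfr2* was at 79.4, 45.0 and 19.5 CPM and the growth factor *Igf2* at 68.2, 41.0 and 28.1 CPM. The reverse order was that of *Ihh* at 52.7, 129 and 394 CPM, *Ibsp* at 4584, 11360 and 19865 CPM, *Cdkn1c* at 457, 976 and 1832 CPM and *Mef2c* at 395, 635 and 1063 CPM. *Col2a1* differed less, at 19718, 22108 and 31779 CPM. *Tnmd* was lowest where *Col10a1* was 0, at 21.7, 43.9 and 45.1 CPM. *Cnmd* and *Tnmd* had the other order in all gated cells, *Cnmd* at 528 CPM with 0 and 1154 CPM with 10 or more *Col10a1* UMIs and *Tnmd* at 185 and 56.1 CPM.

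**Figure D5:**
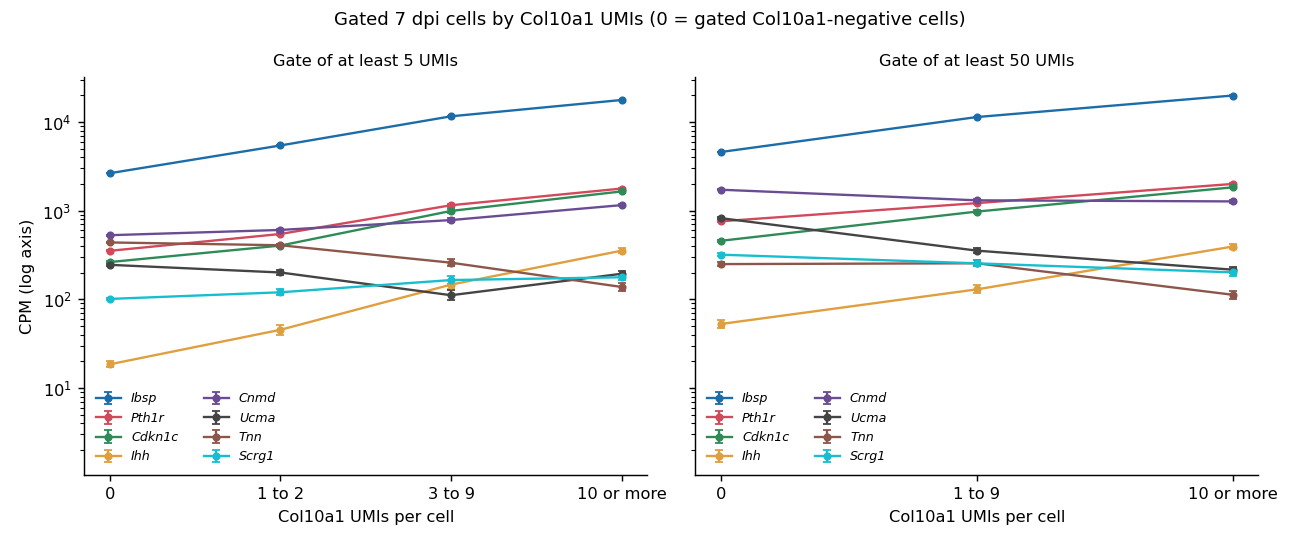
CPM (log axis) of 8 genes in gated 7 dpi cells by their *Col10a1* UMIs, for all gated cells (left) and for those with at least 50 gate UMIs (right), with bars for 95% exact Poisson intervals. On the right *Ucma* lies at 823, 354 and 216 CPM and *Ihh* at 52.7, 129 and 394 CPM, while on the left *Cnmd* runs from 528 to 1154 CPM.

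The second comparison was with 1112 cells of the same library that had at least 2 UMIs of *Lrrc15* and *Tnn* together and 0 of the gate genes, *Col10a1* and *Ptprc*. Of 11150 genes, 337 (3.02%) were higher and 220 (1.97%) lower in the gated *Col10a1*-negative cells, and the median log2 ratio was -0.05. Of the calls 60.5% were higher ones, but 83.9% with cells thinned to 1000 UMIs, 75.2% with the mean of per-cell CPM and 29.2% (430 higher and 1045 lower) with a gate sum of at least 50, a limit chosen after the data were seen. The gate genes, *Lrrc15* and *Tnn* chose the cells and are not counted. The comparison cells had a median of 3856.5 UMIs. They were not free of cartilage transcripts, since *Col2a1* had a UMI in 41.6% of them, or 13.0% after thinning to 1000 UMIs, against 70.2% of the gated *Col10a1*-negative cells and 28.3% of the *Ptprc*-positive cells.

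Cartilage genes that the gate did not use were far higher in the gated *Col10a1*-negative cells than in these comparison cells. The comparison cells were chosen to hold 0 gate UMIs, so their low cartilage levels are in part set by the rule. Cartilage collagens outside the gate summed to 11108 CPM in the gated *Col10a1*-negative, 389 in the comparison and 4601 in the *Ptprc*-positive cells. Among genes with at least 10 UMIs in the comparison cells, the largest ratio belonged to *Mia*, a secreted protein of chondrocytes, at 134 against 1.20 CPM (112-fold, 60.9 to 234). Then came *Scrg1* at 101 against 1.31 CPM, *Ucma* at 245 against 3.23 CPM and *Col2a1* at 6199 against 88.0 CPM (70.5-fold, 65.5 to 75.8). *Cnmd*, *Susd5*, *Col9a3*, *Panx3*, *Smpd3* (a sphingomyelinase of growing cartilage) and *Col11a2* completed the 10 largest, at 56.0-fold to 32.1-fold. All 6 cartilage collagens outside the gate were higher, with a median log2 ratio of 4.83. Of 13 other matrix genes 10 were higher and 2 lower, with a median of 4.28, and the 2 lower were *Cilp* (143 against 411 CPM) and the lubricin gene *Prg4* (22.7 against 86.7 CPM), known from the intermediate and surface layers of articular cartilage.

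Of 8 chondrocyte transcription factors, 7 were higher and 0 lower, with a median log2 ratio of 1.77. *Sox9* was at 246 against 101 CPM (2.44-fold, 2.28 to 2.63), *Sox6* at 49.2 against 2.75 CPM (17.9-fold, 11.9 to 28.3) and *Sox5* at 30.7 against 10.3 CPM. At least 1 *Sox9* UMI was in 34.9% (32.1 to 37.8) of the comparison cells and in 20.9% (19.6 to 22.2) of the *Ptprc*-positive cells, where *Sox9* was at 116 CPM. *Runx2* was at 93.9 and 64.7 CPM and was not called. Of 15 chondroitin sulfate genes 5 were higher, among them the sulfate transporter *Slc26a2* at 116 against 28.4 CPM and the xylosyltransferase *Xylt1* at 76.5 against 18.6 CPM. Of 12 hypertrophy and mineralization genes 6 were higher and 0 lower, with a median of 0.96, including *Alpl* at 386 against 51.4 CPM and *Ibsp* at 2644 against 129 CPM. These came from cells selected to have no *Col10a1* UMI.

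Of the signalling lists, 2 of 14 FGF and IGF genes were called higher and 2 lower, 1 and 1 of 21 BMP genes, 2 and 1 of 10 genes of the hedgehog and parathyroid hormone loop, and 4 and 2 of 11 Wnt inhibitors and targets. The receptors *Fgfr3* (43.9 against 3.59 CPM), *Fgfr2* (63.7 against 10.3 CPM) and *Pth1r* (352 against 54.9 CPM) and the hedgehog target *Ptch1* (119.6 against 47.9 CPM) were higher in the gated *Col10a1*-negative cells. Among the lower genes were *Pthlh* (parathyroid hormone-related protein, a ligand of *Pth1r*) at 6.67 against 14.6 CPM, *Fgf18* at 4.51 against 17.6 CPM and *Bmp4* at 8.42 against 19.1 CPM. The ligand *Ihh* was at 18.5 CPM in the gated cells and had 1 UMI in the comparison cells. *Frzb* was at 120.0 against 4.90 CPM, whereas the related Wnt binders *Sfrp2* and *Sfrp4* were lower at 329.9 against 678 CPM and 35.6 against 83.8 CPM. The 10 largest ratios among lower genes began with the acute phase gene *Saa3* at 3.53 against 25.1 CPM (7.12-fold, 5.69 to 8.93), the chemokine *Cxcl5* at 5.50 against 36.0 CPM and *Wnt2* at 10.3 against 67.1 CPM. *AA467197*, *Ankrd1*, *Dmkn*, *Gap43*, *Fgf18*, *Ccl8* and *Prss23* followed, at 5.44-fold to 3.81-fold.

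Of 17 fibroblast and perichondrium genes outside the rule 0 were higher and 1 was lower, *Ly6a* at 255 against 825 CPM (3.24-fold, 3.14 to 3.34), with a median log2 ratio of -0.09. *Col1a1* was at 13305 and 11705 CPM, *Col3a1* at 7990.1 and 10744 CPM, and *Postn* at 2954 and 3991 CPM. None of 6 tendon genes was called, and *Scx* was at 102 CPM in the gated cells and 55.2 CPM in the comparison cells. Over all 11150 genes, 3.02% were called higher and 1.97% lower, so few calls in these lists is near that share. Adhesion genes differed in both directions, with 5 of 10 higher, such as the collagen II-binding integrin *Itga10* at 29.4 against 2.63 CPM, and the hyaluronan receptor *Cd44* lower at 135 against 368 CPM.

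Transcripts of dividing cells were detected in the gated *Col10a1*-negative cells. At least 2 UMIs of *Mki67* and *Top2a* together were found in 719 (15.2%, 14.2 to 16.3), and in 11.2% (10.2 to 12.3) of the *Ptprc*-positive cells. After thinning to 1000 UMIs these shares were 2.22% (1.81 to 2.68) and 2.72% (2.19 to 3.32), and their intervals overlapped. The thinning left out 76, 36, 47 and 191 shallower cells, and after it at least 1 such UMI was in 10.2% (9.34 to 11.1) of the gated *Col10a1*-negative, 8.64% (7.21 to 10.3) of the gated *Col10a1*-positive, 13.1% (11.2 to 15.3) of the *Lrrc15* and *Tnn* cells and 9.89% of the *Ptprc*-positive cells. Unthinned, the first 3 shares were 27.8%, 22.9% and 31.7%. After thinning the intervals of the gated populations overlapped. Unthinned they did not (26.5 to 29.1 and 20.7 to 25.1), and the *Ptprc*-positive share was 21.5%. Within the gated *Col10a1*-negative cells, the 719 had a median of 6911 UMIs against 4316.5 in the other 4004. Their *Col2a1* was at 2951 against 7112 CPM, *Acan* at 1077 against 1715 CPM and *Cdkn1c* at 122 against 303 CPM, while *Tnc* was at 845 against 615 CPM. The cells with these transcripts of division thus held less cartilage collagen and less *Cdkn1c* and were deeper. The part of depth was not tested.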

How the data were processed

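Single-cell libraries of tibial muscle from *Nse-Bmp4* mice were made on the 10x platform. Per the processing notes, the authors used Cell Ranger 5.0.0 with mm10 and Seurat 3.1.1, and deposited raw UMI counts per gene and barcode. Whether these precede the down-sampling named in the methods is not stated. Of 32285 gene identifiers, 99.8% matched GENCODE M21 (GRCm38) for positions.

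From the deposited counts, cells were chosen by the gate and UMIs were summed per population into CPM. Cells were thinned to 1000 UMIs (seed 0) for shares. A ratio of at least 2, with at least 100 UMIs in the higher and 10 in the lower population, was called. Each time point had 1 library, so no p-value was computed. Named genes were those of the gene lists, the 10 largest ratios in each direction of each comparison, and the 15 highest levels. A marker gene and the list that held it are not reported here. The members and lists were chosen with earlier results of these data known. Alternatives were gate sums, mitochondrial and depth limits, removal of the top 7.5% of Scrublet scores, the *Col10a1* threshold, thinning, a mean over cells, the 50 most abundant genes left out of the denominator, the UMI minimum and at least 1 *Col2a1* UMI. The interval code was tested on simulated data. Python 3.11.15, numpy 2.4.6, scipy 1.17.1, pandas 2.3.3, matplotlib 3.10.9 and scanpy 1.11.5 were used.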

Additional observations from a re-analysis of the deposited data

How the results depend on the processing

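The number of gated *Col10a1*-negative cells was 6252, 4055, 4450, 4202 and 4188 with a gate sum of at least 3, a mitochondrial limit of 5%, depths within 2 SD, the top 7.5% of Scrublet doublet scores in the library removed and at least 1 *Col2a1* UMI (added after the data were seen). A gate sum of at least 10 gave 2909 cells and of at least 50 (also added) 546, both by construction. Of 7599 values recomputed for 675 results under 12 alternatives, 2651 moved beyond their counting interval and 11, of 9 results, reversed. With a gate sum of at least 50, 525 moved, after thinning 401 and with the mean of per-cell CPM 367.

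Against the *Col10a1*-positive cells, the 78 higher and 218 lower genes became 39 and 137 within 2 SD of depth, 602 and 368 with at least 3 *Col10a1* UMIs in the positive cells, 26 and 48 after thinning (5419 genes measured instead of 11232), 424 and 459 with 20 UMIs over both populations (14384 genes measured) and 42 and 131 at a gate sum of at least 50 (6823 genes measured). The mean of per-cell CPM gave 132 lower genes. Higher genes were 62.1% of the calls with at least 3 *Col10a1* UMIs, where the median over all genes was 0.18 (log2), and 48.0% with the minimum of 20 UMIs. Against the *Lrrc15* and *Tnn* cells, the 337 higher and 220 lower genes became 141 and 27 after thinning and 905 and 472 with the minimum of 20 UMIs. The mean of per-cell CPM gave 102 lower genes. A gate sum of at least 50 gave 1045 lower genes, with 29.2% of calls higher and a median over all genes of -0.24. Apart from the number of genes measured, the cause was not tested.

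Log2 ratios that reversed were those of *Igkc* to the *Col10a1*-positive cells (-0.45 within 2 SD) and to the *Lrrc15* and *Tnn* cells (-1.46 within 2 SD, -0.45 thinned, -1.10 as mean of per-cell CPM), and of *Slc5a7* to the *Col10a1*-positive cells (-0.17 thinned). At a gate sum of at least 50 they were *Mcpt4* (-0.047 to the *Col10a1*-positive cells, -1.78 to the *Lrrc15* and *Tnn* cells), *C1qb* (-0.21) to the *Lrrc15* and *Tnn* cells, *Ibsp* from quartile 1 to 4 (-0.75), and *Cnmd* (-0.44) and *Tnmd* (1.05) from 0 to 10 or more *Col10a1* UMIs. The cause was not tested.

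No paired analysis was possible because each time point had 1 library. At a median of 4654 UMIs, 0 *Col10a1* UMIs still allow up to 644.6 CPM in a cell, and genes with few UMIs enter and leave the calls with the minimum set.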
